A study of Mus musculus with 18 samples.

Results

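The 8 genes described here encode proteins that build and guard the sarcomere, the contractile unit of striated muscle: the Kelch-domain proteins Klhl31, Klhl40, Klhl41 and Klhl30, the myosin chaperones Smyd1, Unc45b and Hsp90aa1, and the intermediate filament protein desmin (Des). They were picked by symbol for these roles, with earlier results of these data known, out of 50600 gene identifiers. All 8 were among the 13939 genes abundant enough to be tested. Poly-A RNA was sequenced with a stranded kit from C2C12 cells, an established mouse myoblast line that fuses into myotubes when serum is withdrawn. The 3 stable lines were a control transfected with a control plasmid, a line depleted of ERK3 (condition px459-Mapk6sg; Mapk6 encodes the atypical MAP kinase ERK3) and a line depleted of MK5 (condition px459-Mk5sg; Mapkapk5 encodes MK5, a kinase that binds ERK3). Each line was sampled while proliferating in growth medium (GM) and on day 2 of culture in differentiation medium (DM2). This gives 6 groups of 3 libraries. The labels do not say whether the numbered libraries of a line are separate clones or cultures, so the p-values measure only the spread between these libraries, which may be technical.

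Sarcomeres assemble when thick filaments of myosin and thin filaments of actin are folded, aligned and anchored to Z-discs. UNC45B is the muscle co-chaperone that brings the myosin head to HSP90, HSP90 alpha (Hsp90aa1) is the stress-inducible cytosolic form of that chaperone, and SMYD1 is a muscle-restricted lysine methyltransferase that works with both on thick filaments. Klhl40 and Klhl41 belong to the BTB-Kelch family, whose members often serve as adaptors of the CUL3 ubiquitin ligase, and in muscle they stabilise thin filament proteins such as nebulin and leiomodin 3; loss of either causes nemaline myopathy. Klhl31 and Klhl30 are muscle-enriched relatives, and filamin C is a known target of Klhl31. Desmin links Z-discs to one another and to the cell membrane.

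The start regions of 4 members are shown, those with a RefSeq entry and no annotated exon in the window, so that the E-boxes (CANNTG), the letters that MyoD-family factors bind, can be compared directly; all 4 genes rose on differentiation. Each is the 250 bases before the RefSeq start on build GRCm38.p6, read 5' to 3' along the gene's strand, with every E-box in capitals. The windows are chr9:121777357-121777606 for Klhl40, chr2:69669870-69670119 for Klhl41 and chr1:75360042-75360291 for Des, on the plus strand, and chr6:71262282-71262531 for Smyd1, on the minus strand and inside the span of its GENCODE M21 gene. None holds exonic bases in GENCODE M21.
Klhl40: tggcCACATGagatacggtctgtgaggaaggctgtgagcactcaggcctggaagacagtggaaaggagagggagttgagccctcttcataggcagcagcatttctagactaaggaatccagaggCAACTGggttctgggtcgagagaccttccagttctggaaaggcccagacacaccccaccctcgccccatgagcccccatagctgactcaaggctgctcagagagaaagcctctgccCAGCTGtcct
Klhl41: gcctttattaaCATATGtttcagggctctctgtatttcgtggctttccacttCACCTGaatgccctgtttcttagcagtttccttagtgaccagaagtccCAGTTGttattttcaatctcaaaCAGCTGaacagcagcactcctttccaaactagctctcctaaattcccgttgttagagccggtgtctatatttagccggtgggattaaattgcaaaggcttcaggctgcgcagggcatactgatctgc
Des: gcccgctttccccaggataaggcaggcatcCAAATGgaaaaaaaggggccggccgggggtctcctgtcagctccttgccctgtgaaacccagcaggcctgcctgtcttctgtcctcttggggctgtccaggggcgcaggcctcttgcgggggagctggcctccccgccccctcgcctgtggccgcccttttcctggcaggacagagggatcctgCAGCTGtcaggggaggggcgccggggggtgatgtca
Smyd1: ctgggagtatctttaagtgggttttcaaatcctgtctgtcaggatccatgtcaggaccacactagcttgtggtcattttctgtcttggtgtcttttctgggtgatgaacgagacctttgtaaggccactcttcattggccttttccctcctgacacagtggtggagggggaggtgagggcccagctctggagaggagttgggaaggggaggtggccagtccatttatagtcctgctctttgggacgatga

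Klhl40 holds 3 E-boxes, Klhl41 holds 4, Des holds 2 and Smyd1 holds 0, and each of the first 3 windows has 1 E-box of the form CAGCTG. Of 32851 RefSeq windows of this length, 66.2% hold at least 1 E-box and 13% hold CAGCTG, with both strands searched. The Klhl41 window also has a match to the MEF2 motif at position -63 from the start, a match found in 1.69% of windows, and an E-box of the form CACCTG, which with its complement CAGGTG is found in 17.2%. The Klhl40 window has a match to GAANNTTC or TTCNNGAA, the paired half-sites of a heat shock element, at position -95, against 12.8% of windows. The Smyd1 window has TTTATA at position -28, where 12.4% of windows hold TATAAA or TTTATA. Windows of Klhl31 and Unc45b overlap annotated exons and are not shown, and Klhl30 and Hsp90aa1 had no entry in the table. These matches are letters in a window and not measured binding sites.

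The libraries held 23.6 to 31.2 M reads, and 17.5 to 23.4 M of them fell in genes. The level of a gene in a library is given as CPM, its counts scaled to library size with TMM factors, or as TPM, which also divides by transcript length, where genes are compared with each other. In the ERK3-depleted line its target Mapk6 had 115, 105 and 133 CPM in GM against 150, 119 and 124 in control, and 116, 96.8 and 136 against 219, 207 and 204 at DM2. The Mapk6 difference was called at DM2 (log2 fold change -0.86 ± 0.12 (SE), n = 3, edgeR adjusted p = 2.18e-05) and not in GM (-0.15 ± 0.12, adjusted p = 0.464). Mapk6 was also lower at DM2 in the MK5-depleted line (-0.40 ± 0.12, adjusted p = 0.0115). Mapkapk5 had only 11 to 32 uniquely counted reads in a library, 1.17 to 3.19% of its RSEM expected counts. Its TPM was 33.3 ± 2.40 (SD, n = 3) in the MK5-depleted line against 55.5 ± 3.46 in control in GM. At DM2 it was 49.1 ± 8.12 against 69.2 ± 3.19, where the ERK3-depleted line had 55.9 ± 10.4. The median log2(TPM + 1) difference of all genes from control at DM2 was itself -0.29 for MK5 and -0.46 for ERK3. In GM that median was -0.02 for MK5, so the DM2 values of Mapkapk5 are the less certain. A short edit by Cas9 need not lower the mRNA of its target, so these levels are a limited check of the labels. Of 8 differentiating-muscle markers, none was at 0 in every library, and their summed level was 85.6 to 156 CPM in control GM and 2436 to 2921 CPM in control DM2, with 1459 to 2147 in ERK3-depleted and 1521 to 2580 in MK5-depleted cells at DM2. The 6 myoblast markers summed to 552 to 838 CPM in GM and 1378 to 1571 CPM at DM2. Adipocyte, macrophage and endothelial markers each summed to at most 2.98 CPM in a library, with Plin1, Cidec, Lep, Adgre1 and Emcn at 0 in all 18. The 7 fibroblast markers summed to 63.5 to 180 CPM, and the 5 smooth muscle markers, which include Des itself and are mostly Acta2, to 5919 to 10540 CPM. Neuron and glia markers, nearly all of it Tubb3, summed to 11.5 to 46.9 CPM in control DM2, 45.0 to 119 in ERK3-depleted DM2 and 81.9 to 133 in MK5-depleted DM2, with Snap25 and Sox10 at 0 in all 18 libraries. The part of these shifts in the results below was not tested. In bulk RNA, fewer cells that express a gene and less RNA per cell cannot be told apart.

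Replicates 1 and 2 of both depleted lines at DM2 had the most reads outside annotated genes of the 18 libraries. Their reads outside annotated genes were 5.55 and 7.73% of all reads in the ERK3-depleted line and 3.96 and 4.11% in the MK5-depleted line, against 2.40 to 3.79% elsewhere. The library at 3.79% was ERK3-depleted DM2 replicate 3, close to the MK5-depleted pair. It was kept when the 4 were left out. Values without the 4 libraries are given for single members where stated below. Results of the gene lists are given with all 18 libraries only. Without the 4 libraries each depleted line keeps 1 DM2 library, which is then assumed to vary like the other groups.

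Per length, desmin and Hsp90aa1 were by far the most abundant members and Klhl30 was the third in all 6 groups. The TPM of Hsp90aa1 includes reads shared with other loci. In uniquely mapped counts it averaged 241 CPM in control GM, where Des averaged 977 CPM. In control GM the mean TPM was 507 ± 63.4 (SD, n = 3) for Hsp90aa1, 459 ± 33.2 for Des and 25.2 ± 7.49 for Klhl30, while the other 5 members lay between 0.400 ± 0.13 (Unc45b) and 1.83 ± 0.70 (Klhl41). Those last 5 rested on few reads in proliferating cells, 9 to 176 reads in a GM library. In control DM2 the order was Des (660 ± 49.4), Hsp90aa1 (610 ± 60.8), Klhl30 (74.7 ± 18.6), Klhl41 (44.2 ± 4.44), Klhl40 (13.9 ± 1.33), Smyd1 (13.0 ± 2.30), Unc45b (12.2 ± 1.61) and Klhl31 (2.06 ± 0.277). Des and Hsp90aa1 overlapped there, as did Klhl40, Smyd1 and Unc45b from one to the next. In the depleted lines Klhl41 was no longer above Smyd1: it averaged 8.26 ± 4.23 TPM in ERK3-depleted and 10.9 ± 4.54 in MK5-depleted DM2 cells, where Smyd1 averaged 11.1 ± 5.83 and 15.0 ± 3.72.

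**Figure D1:**
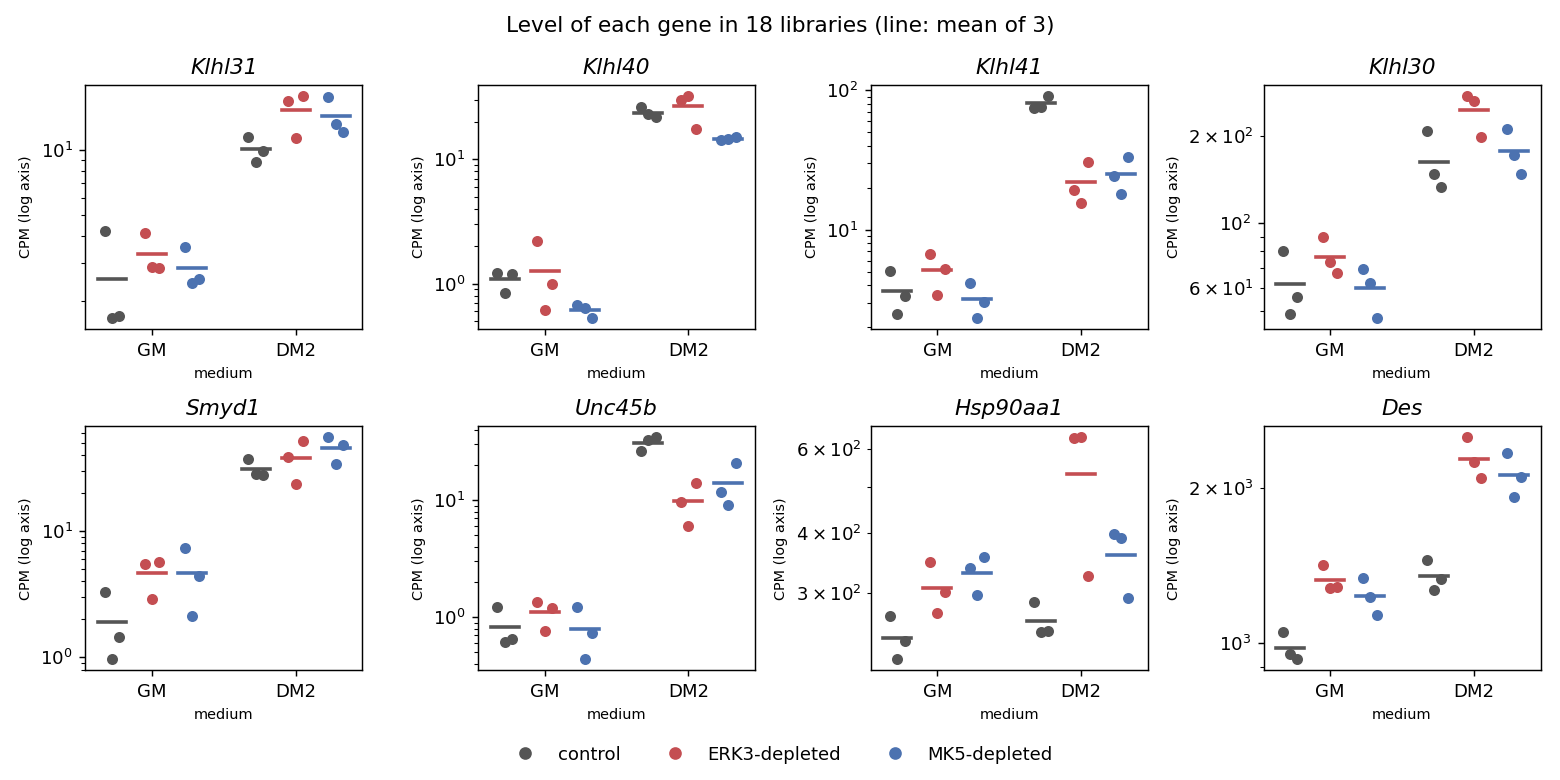
Level of each of the 8 genes in the 18 libraries, in CPM on a log axis, by medium and line; points are libraries and lines are means of 3. At DM2 the depleted lines' Klhl41 points lie between 15.7 and 33.5 CPM, all below the control points at 75.1 to 91.2 CPM, while their Des points lie above the control points.

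Differentiation raised the muscle-restricted members strongly in every line. In control cells 7 of the 8 genes rose from GM to DM2, where 22.5% of all tested genes rose (edgeR, adjusted p under 0.05). Their median log2 fold change was 3.03, against -0.02 over all tested genes. In the ERK3-depleted line 8 of 8 rose (28.9% of all genes), and in the MK5-depleted line 7 of 8 rose (24.6% of all genes). The medians were 2.16 and 2.65. No member fell by edgeR, with every fitted change above 0, where 23.1, 26.2 and 24.8% of all genes did in the control, ERK3-depleted and MK5-depleted lines.

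Among the Kelch genes, Klhl40 and Klhl41 rose most. Klhl40 (ENSMUSG00000074001.3, chr9:121777607-121783818, plus strand) went from 1.23, 0.834 and 1.2 CPM in control GM to 26.2, 23.1 and 21.9 CPM at DM2. That is 21.9-fold (log2 4.45 ± 0.29 (SE), adjusted p = 1.55e-09), and the 2 groups of libraries did not overlap. Klhl41 (ENSMUSG00000075307.3, chr2:69670120-69684230, plus strand) went from 5.07, 2.5 and 3.35 CPM to 75.1, 75.6 and 91.2 CPM, 22.4-fold (log2 4.48 ± 0.31, adjusted p = 5.16e-09). Klhl31 (ENSMUSG00000044938.8, chr9:77636500-77660127, plus strand) was at 4.21, 1.67 and 1.70 CPM in control GM and at 11.5, 8.81 and 9.85 CPM at DM2, 4.03-fold higher (adjusted p = 1.95e-05). Klhl30 (ENSMUSG00000026308.8, chr1:91351016-91362416, plus strand) was already at 80.5, 48.7 and 56.0 CPM in GM and reached 208, 148 and 133 CPM, 2.65-fold higher (adjusted p = 2.83e-05). None of these 4 genes had overlapping GM and DM2 libraries in control cells.

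Of the chaperones, Unc45b and Smyd1 rose and Hsp90aa1 did not pass the test in control cells. Unc45b (ENSMUSG00000018845.14, chr11:82910550-82943403, plus strand) had the largest control fold change of the 8 genes, 37.7-fold, from 1.23, 0.615 and 0.651 CPM to 26.1, 32.5 and 34.4 CPM (log2 5.24 ± 0.39, adjusted p = 8.89e-09). Its GM level rests on 13 to 23 reads in a control library, so the size of this fold is imprecise. Smyd1 (ENSMUSG00000055027.17, chr6:71213940-71322233, minus strand) went from 3.31, 0.966 and 1.45 CPM to 37.2, 28.2 and 27.8 CPM, 16.6-fold (log2 4.06 ± 0.45, adjusted p = 2.04e-06). Hsp90aa1 (ENSMUSG00000021270.13, chr12:110690605-110702728, minus strand) was at 268, 218 and 238 CPM in GM and 287, 249 and 250 at DM2, and these overlapped (log2 0.12 ± 0.19, adjusted p = 0.630). Des (ENSMUSG00000026208.9, chr1:75360329-75368579, plus strand) rose 1.38-fold from 1048, 954 and 930 CPM to 1452, 1265 and 1333 CPM (adjusted p = 0.000567); desmin mRNA is thus high before differentiation and its rise is the smallest of the 7.

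**Figure D2:**
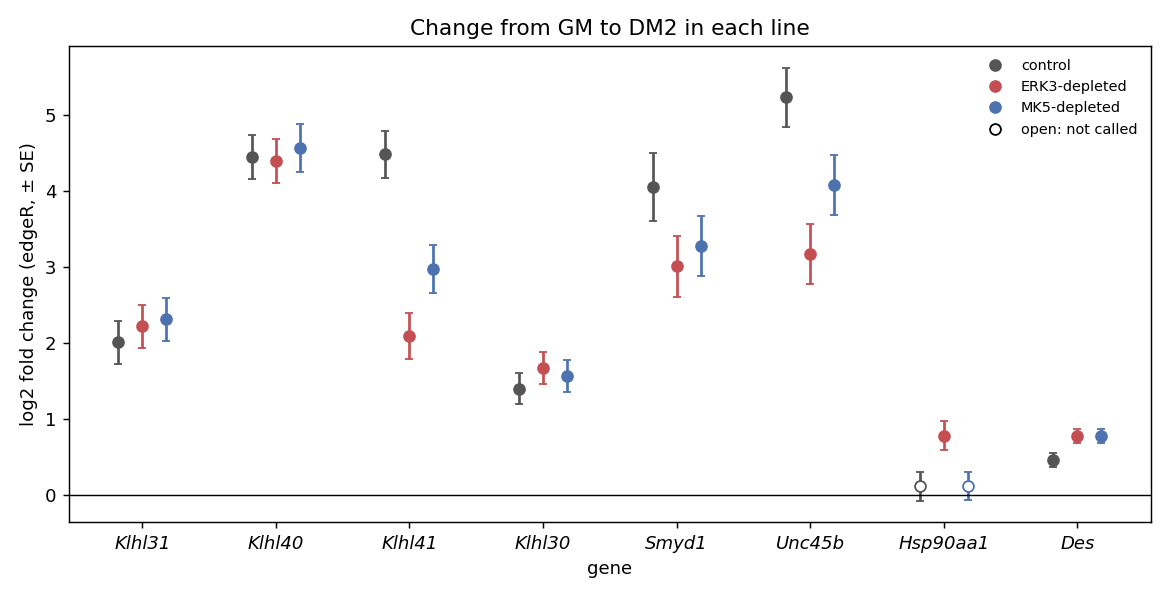
Log2 fold change from GM to DM2 (edgeR, bars are ± SE) for each gene in the control, ERK3-depleted and MK5-depleted lines; filled points passed an adjusted p of 0.05. Klhl40 stands near 4.5 in all 3 lines, while Klhl41 and Unc45b are at 4.48 and 5.24 in control and at 2.10 and 3.17 in ERK3-depleted cells.

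In the depleted lines the same change from GM to DM2 differed by gene. Klhl40 rose by 4.39 ± 0.29 on the log2 scale in ERK3-depleted and 4.57 ± 0.32 in MK5-depleted cells. Klhl41 rose by 2.10 ± 0.30 in ERK3-depleted and 2.98 ± 0.31 in MK5-depleted cells. Unc45b rose by 3.17 ± 0.39 and 4.09 ± 0.39, and Smyd1 by 3.01 ± 0.40 and 3.28 ± 0.40. Klhl31 (2.22 and 2.31), Klhl30 (1.67 and 1.57) and Des (0.78 in both) were raised in both lines. All of these passed the test in each line, and each had GM and DM2 libraries that did not overlap. Hsp90aa1 was called in ERK3-depleted cells (0.79 ± 0.19, adjusted p = 0.00186) and not in MK5-depleted cells (0.13 ± 0.19, adjusted p = 0.600); the ERK3 call is taken up with its libraries below.

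Whether a depleted line responded differently from control was tested as an interaction. In the ERK3-depleted line Klhl41 rose less than in control by -2.39 ± 0.43 on the log2 scale (adjusted p = 0.00296), and Unc45b by -2.07 ± 0.61 (adjusted p = 0.0195), so 2 of 8 were lower, where 14% of all tested genes were. In the MK5-depleted line Klhl41 was lower by -1.50 ± 0.44 (adjusted p = 0.0286), 1 of 8 against 9.48% of all genes, and Unc45b was at -1.15 ± 0.62 (adjusted p = 0.196). Klhl40 differed by -0.06 ± 0.44 (adjusted p = 0.928) and 0.11 ± 0.47 (adjusted p = 0.884), values too imprecise to show equal responses. None of the members was called higher by edgeR, where 14.6% of all genes were for ERK3 and 8.54% for MK5; 4 and 2 members had an unadjusted p under 0.05 in either direction, and DESeq2 called 1 higher for ERK3. With the replicate number as a block, the ERK3 response was called higher for Hsp90aa1 (0.65, adjusted p = 0.0472) and Des (0.315, adjusted p = 0.012) and lower for Smyd1 (-1.09, adjusted p = 0.0461), which makes 2 members higher and 3 lower. Without the 4 libraries with most reads outside genes, the Klhl41 difference for ERK3 was -1.93 (adjusted p = 0.0248), while Unc45b for ERK3 (-1.59, adjusted p = 0.0579) and Klhl41 for MK5 (-1.10, adjusted p = 0.0965) were no longer called. The Unc45b call for ERK3 was also lost without control GM replicate 2 (adjusted p = 0.0575), ERK3 GM replicate 1 (0.063) or ERK3 GM replicate 3 (0.0587). The Klhl41 call for MK5 was lost without any one of control GM replicates 2 and 3, MK5 GM replicates 1 and 3, control DM2 replicate 3 and MK5 DM2 replicates 1 and 2, with adjusted p from 0.0577 to 0.101.

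At DM2 itself the depleted lines were compared with control, and both comparisons share the 3 control libraries. Against control, ERK3-depleted cells had 4 members higher (28% of all tested genes were higher) and 2 lower (27.8% lower), and MK5-depleted cells had 1 higher (22.2%) and 3 lower (22.9%). Counts of this size are near those shares, so the account below rests on single genes. Klhl41 and Unc45b were lower in both lines, and Des was higher in both.

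Klhl41 had 19.5, 15.7 and 30.5 CPM in ERK3-depleted DM2 libraries and 24.3, 18.1 and 33.5 CPM in MK5-depleted ones, all below the lowest control library at 75.1 CPM. It was 3.68-fold lower in ERK3-depleted cells (log2 -1.88 ± 0.26 (SE), adjusted p = 2.25e-05) and 3.18-fold lower in MK5-depleted cells (-1.67 ± 0.26, adjusted p = 0.000128). In both lines the highest library was replicate 3, the one not among the 4 with most reads outside genes. Without those 4 libraries the difference was -1.41 (adjusted p = 0.00469) for ERK3 and -1.25 (adjusted p = 0.00663) for MK5, so the call held. In a fit that models reads outside genes it was -1.14 (adjusted p = 0.0216) for ERK3, a smaller difference, and -1.45 (adjusted p = 8.24e-05) for MK5.

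Unc45b had 9.74, 6.02 and 14.0 CPM in ERK3-depleted and 11.8, 9.17 and 20.7 CPM in MK5-depleted DM2 libraries, against 26.1, 32.5 and 34.4 CPM in control, with no overlap. It was 3.11-fold lower with ERK3 depletion (-1.64 ± 0.29, adjusted p = 0.000162) and 2.23-fold lower with MK5 depletion (-1.15 ± 0.28, adjusted p = 0.00328). Here too replicate 3 was highest in each line. Without the 4 libraries the ERK3 difference was -1.15 (adjusted p = 0.00525) and the MK5 difference -0.57 (adjusted p = 0.0898). In a fit that also models how many reads fell outside genes, the ERK3 difference was -0.66 (adjusted p = 0.148) and the MK5 difference -0.88 (adjusted p = 0.00244).

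Klhl40, the relative of Klhl41, and Smyd1, the partner of Unc45b, gave other values. Klhl40 had 30.1, 32.3 and 17.5 CPM in ERK3-depleted DM2 libraries, on both sides of the control libraries (log2 0.16 ± 0.21, adjusted p = 0.528). Replicates 1 and 2, high in reads outside genes, held the higher values, and replicate 3 lay below all control libraries. Without the 4 libraries with most such reads the ERK3 difference was -0.45. With reads outside genes as a covariate it was -0.35 (edgeR adjusted p = 0.446). In MK5-depleted libraries Klhl40 had 14.3, 14.6 and 15.2 CPM, below all control libraries and 1.61-fold lower (-0.69 ± 0.22, adjusted p = 0.0153). That call was lost without control DM2 replicate 1 (adjusted p = 0.0567), without MK5 DM2 replicate 1 (0.0531) or without the 4 libraries (-0.64, adjusted p = 0.0849). Smyd1 had 38.3, 23.4 and 51.3 CPM in ERK3-depleted and 55.3, 34.2 and 47.8 CPM in MK5-depleted DM2 libraries, overlapping the control libraries, and neither difference was called (0.28 ± 0.34, adjusted p = 0.508 and 0.56 ± 0.34, adjusted p = 0.195).

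**Figure D3:**
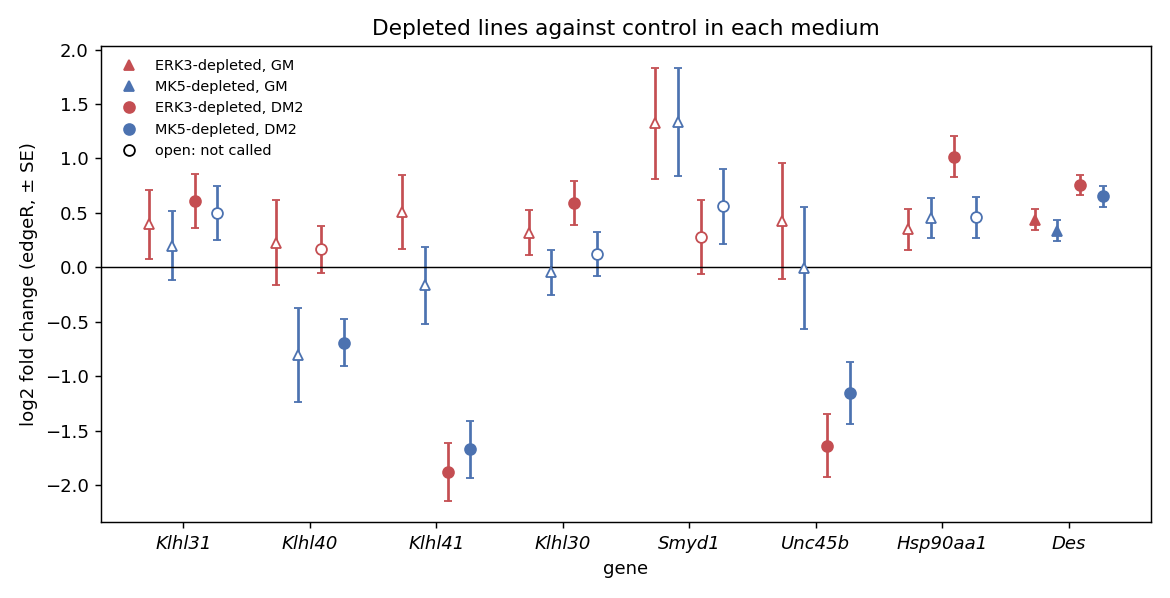
Log2 fold change of each depleted line against control (edgeR, bars are ± SE) in GM (triangles) and at DM2 (circles); filled symbols passed an adjusted p of 0.05. Klhl41 is at -1.88 and -1.67 and Unc45b at -1.64 and -1.15 at DM2, while Des is above 0 in all 4 comparisons.

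Read ratios within a library do not depend on its depth, and were looked at after the levels had been seen, so they are given without a test. At DM2 control libraries held 2.86, 3.27 and 4.16 Klhl41 reads per Klhl40 read. ERK3-depleted libraries held 0.647, 0.486 and 1.75, and MK5-depleted libraries 1.70, 1.24 and 2.21, all below control. The depleted replicates 1 and 2 are the 4 libraries with most reads outside genes. Replicate 3 had the highest ratio in each depleted line, as it did in control. In GM the ratio was 2.79 to 4.13 in control, 3.07 to 5.58 in ERK3-depleted and 3.69 to 6.19 in MK5-depleted cells. Unc45b reads per Smyd1 read were 0.703, 1.15 and 1.24 at DM2 in control. They were 0.254, 0.257 and 0.274 with ERK3 depletion and 0.214, 0.268 and 0.433 with MK5 depletion. Again replicate 3 was highest in each line. In GM that ratio was already lower in the depleted lines, 0.214 to 0.263 and 0.165 to 0.205 against 0.371 to 0.636, on few reads.

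**Figure D4:**
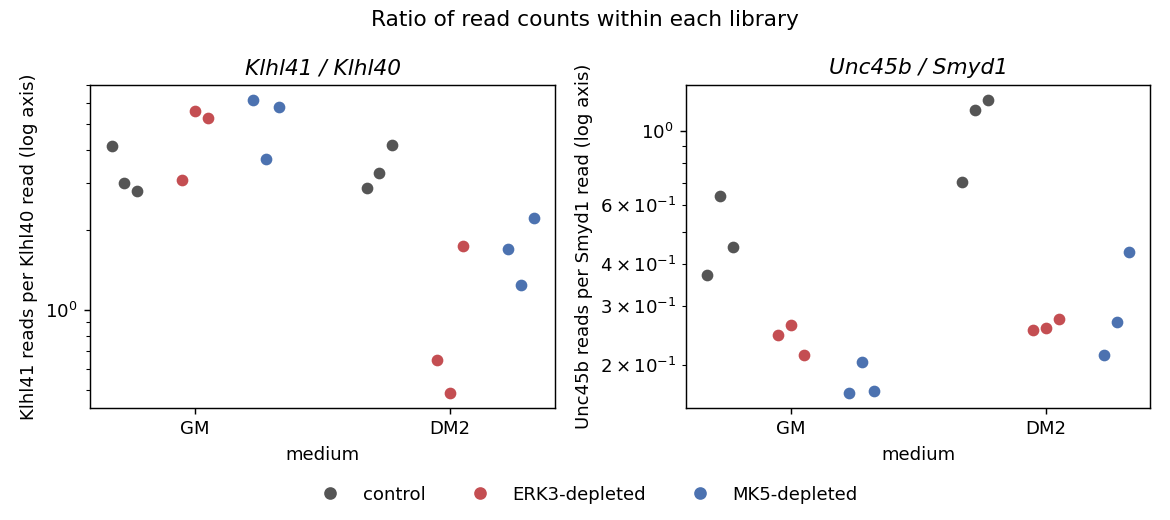
Ratio of read counts within each library, on log axes, for Klhl41 over Klhl40 (left) and Unc45b over Smyd1 (right) by medium and line; each point is 1 library. At DM2 every depleted library lies below the lowest control library, at 2.86 for the left ratio and 0.703 for the right one.

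Klhl31, Klhl30 and Des were higher at DM2 in ERK3-depleted cells. Des had 2508, 2242 and 2091 CPM there and 2339, 1920 and 2101 CPM in MK5-depleted cells, against 1452, 1265 and 1333 in control, with no overlap. It was 1.69-fold higher with ERK3 depletion (log2 0.76 ± 0.09, adjusted p = 8.46e-06) and 1.57-fold higher with MK5 depletion (0.65 ± 0.09, adjusted p = 6.81e-05). Without the 4 libraries with most reads outside genes, the Des difference was 0.626 for ERK3 and 0.650 for MK5. Klhl31, with 16.9, 11.4 and 17.7 CPM against 11.5, 8.81 and 9.85, was 1.52-fold higher in ERK3-depleted cells (adjusted p = 0.0464), and 1 depleted library lay below the highest control library. Klhl30, with 274, 264 and 198 CPM against 208, 148 and 133, was 1.50-fold higher (adjusted p = 0.0198), again with 1 library overlapping. Leaving out single libraries ended both calls: Klhl31 without control DM2 replicate 2 or 3 or ERK3 DM2 replicate 1 or 3 (adjusted p 0.103 to 0.144), and Klhl30 without control DM2 replicate 2 or 3 or ERK3 DM2 replicate 1 or 2 (0.0719 to 0.0956). Without the 4 libraries Klhl31 was at 0.81 (adjusted p = 0.0766) and Klhl30 at 0.27 (adjusted p = 0.551). In MK5-depleted cells Klhl31 (17.5, 13.2 and 12.1 CPM) and Klhl30 (211, 172 and 148 CPM) were not called (log2 0.50 and 0.12, adjusted p = 0.110 and 0.654). The MK5-depleted Klhl31 libraries nevertheless all lay above the control ones. Klhl31 was not called between the depleted lines (MK5 against ERK3, edgeR log2 -0.11 ± 0.25, adjusted p = 0.832).

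These directions are relative to TMM scaling. On the log2(TPM + 1) scale, tested with limma, the median of all genes moved to -0.46 for ERK3 against control at DM2 and -0.29 for MK5 against control, and 1187 genes were higher and 7841 lower for ERK3, against 3905 and 3871 on counts. Des was at 0.19 on that scale for ERK3 (adjusted p = 0.138), Klhl31 at 0.03 (0.892) and Klhl30 at 0.02 (0.943), and all 3 therefore stood above the shifted median without being called. Klhl40 turned to -0.45 (adjusted p = 0.0183), close to the shifted median. Klhl41 was at -2.38 (adjusted p = 1.59e-05) and Unc45b at -1.98 (adjusted p = 3.88e-05), both well below it.

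Hsp90aa1 was high in particular libraries. At DM2 it had 632 and 634 CPM in ERK3-depleted replicates 1 and 2 and 325 CPM in replicate 3, against 287, 249 and 250 in control. In MK5-depleted cells it had 397 and 391 CPM in replicates 1 and 2 and 293 CPM in replicate 3. The ERK3 difference was called (log2 1.02 ± 0.19, 2.02-fold, adjusted p = 0.000237) and the MK5 difference was not (0.46 ± 0.19, adjusted p = 0.0539). The MK5-depleted libraries still all lay above control. Some alternatives called the MK5 difference, such as DESeq2 (0.45, adjusted p = 0.0431) and edgeR on RSEM counts (0.59, adjusted p = 0.0133). It was not called with reads outside genes as a covariate (0.25, adjusted p = 0.208) or by limma on log2(TPM + 1) (0.50, adjusted p = 0.105). The replicates with high values were the 4 libraries with most reads outside genes, and without them the ERK3 difference was 0.31 (adjusted p = 0.131) and the ERK3 rise from GM to DM2 was 0.08 (adjusted p = 0.713). Modelling the fraction of a library outside genes gave 0.33 (adjusted p = 0.315) and 0.14 (adjusted p = 0.680). In the authors' RSEM output the mean transcript length of Hsp90aa1 was 1410 and 1338 bases in ERK3-depleted DM2 replicates 1 and 2, 2029 and 1845 in MK5-depleted replicates 1 and 2, and 2264 to 2722 in the other 14 libraries. Its uniquely mapped counts were 22.7 to 26.3% of its RSEM expected counts. The CPM values leave out reads shared with other loci, while its TPM depends on how those reads were assigned, so its level is uncertain.

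**Figure D5:**
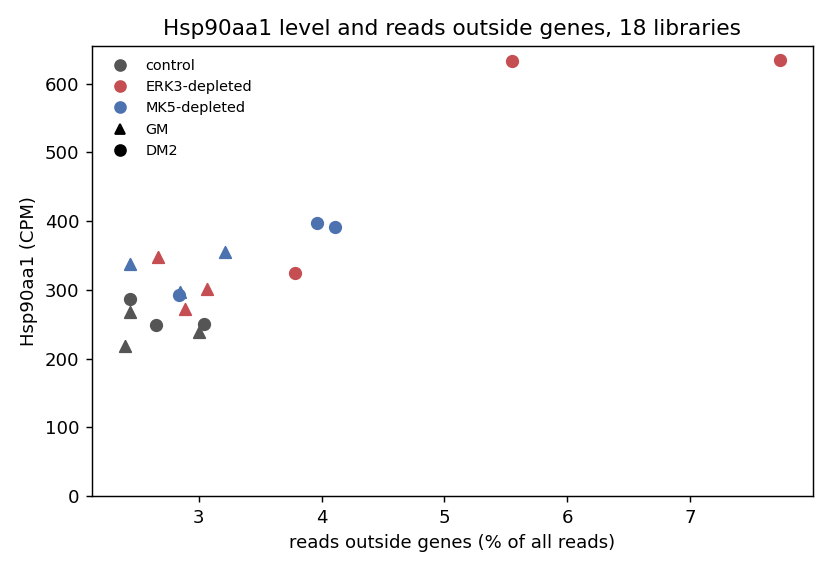
Hsp90aa1 level in CPM against the share of reads outside genes in each of the 18 libraries; colours are lines and shapes are media. The points at 632 and 634 CPM are ERK3-depleted DM2 replicates 1 and 2, with 5.55 and 7.73% of reads outside genes; the third ERK3-depleted DM2 library is at 325 CPM.

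In growth medium, where both comparisons again share the control libraries, few members differed between lines. Des alone was called, 1414, 1276 and 1285 CPM in ERK3-depleted and 1338, 1231 and 1134 CPM in MK5-depleted cells against 1048, 954 and 930 in control, without overlap. It was 1.36-fold higher with ERK3 depletion (log2 0.44 ± 0.09, adjusted p = 0.0159), 1 of 8 where 3.72% of all genes were higher, and 1.26-fold higher with MK5 depletion (0.34 ± 0.09, adjusted p = 0.0343), where 4.71% were. None was called lower by edgeR, where 3.06 and 3.74% of all genes were; 2 members for ERK3 and 3 for MK5 had an unadjusted p under 0.05 in either direction, and DESeq2 called none lower. The ERK3 call was lost without control GM replicate 2 or 3 or ERK3 GM replicate 1 (adjusted p 0.0684 to 0.105), and the MK5 call without control GM replicate 2 or 3 or MK5 GM replicate 1 or 3 (0.0657 to 0.172). Smyd1 had 5.47, 2.92 and 5.65 CPM in ERK3-depleted and 7.37, 2.14 and 4.43 CPM in MK5-depleted cells against 3.31, 0.966 and 1.45 in control. Its log2 differences of 1.32 ± 0.51 and 1.34 ± 0.50 were not called (adjusted p = 0.123 and 0.110). With the replicate number as a block they were (1.32, adjusted p = 0.0188 and 1.30, adjusted p = 0.0167), as was Klhl30 for ERK3 (0.33, adjusted p = 0.0408), which makes 3 members higher for ERK3 and 2 for MK5.

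The 2 depleted lines were also set against each other at DM2. No member and none of the 13939 genes was called by edgeR, although 3 members and 2741 genes had an unadjusted p under 0.05 and DESeq2 called 52 genes higher and 139 lower in MK5-depleted cells. The largest member difference was Klhl40, 1.81-fold lower in MK5-depleted cells (log2 -0.86 ± 0.22, adjusted p = 0.138) with no overlap of libraries. With the replicate block Klhl40 (-0.83, adjusted p = 0.0396) and Klhl30 (-0.47, adjusted p = 0.0287) were called lower. Without ERK3 DM2 replicate 3, Klhl40 was called at -1.06 (adjusted p = 0.000915) and Hsp90aa1 at -0.79 (adjusted p = 0.000619). That fit keeps only the 2 ERK3-depleted DM2 libraries with most reads outside genes. Without the 4 libraries with most reads outside genes, Klhl40 was at -0.19 and Hsp90aa1 at -0.13. With reads outside genes as a covariate they were at -0.49 and -0.09.

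The mRNAs of proteins that the members' products fold, stabilise or bind were read from a list of 15 clients and binding partners. Protein levels were not measured. In control cells 14 of the 15 rose from GM to DM2, where 22.5% of all genes did, with a median log2 fold change of 3.83. At DM2, 6 were higher and 3 lower in ERK3-depleted cells (28% and 27.8% of all genes), and 3 were higher and 4 lower in MK5-depleted cells (22.2% and 22.9% of all genes). The medians were -0.06 and -0.16, against 0.01 and 0.003 over all genes. Ttn, the giant spring of the sarcomere, averaged 112 CPM in control, 279 in ERK3-depleted and 229 in MK5-depleted DM2 cells, and was higher in both (log2 1.31 ± 0.23, adjusted p = 0.000174 and 1.02 ± 0.23, adjusted p = 0.00198). Flnc, the Klhl31 target filamin C, was also higher in both (0.66 and 0.73). Lmod2, which elongates thin filaments, was lower in both, averaging 23.8, 7.95 and 8.90 CPM (-1.58 ± 0.25, adjusted p = 6.24e-05 and -1.42 ± 0.25, adjusted p = 0.00029). Lmod3, the leiomodin that Klhl40 stabilises, was lower in MK5-depleted cells (-0.57 ± 0.17, adjusted p = 0.0132) and not called in ERK3-depleted cells (-0.28 ± 0.17, adjusted p = 0.167). The nebulin gene Neb was higher in ERK3-depleted cells (0.54 ± 0.15, adjusted p = 0.00442) and not called in MK5-depleted cells (0.30 ± 0.15, adjusted p = 0.0983).

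The other genes of the Kelch family were read from a list as well. Of 47 CUL3 and other Kelch-BTB genes, 35 were tested; in control cells 12 rose and 4 fell from GM to DM2 (22.5% and 23.1% of all genes), with a median of 0.14. At DM2, 2 were higher and 15 lower in ERK3-depleted cells (median -0.25), where 28% and 27.8% of all genes were. In MK5-depleted cells 3 were higher and 17 lower (median -0.31), where 22.2% and 22.9% of all genes were. Klhl11 averaged 11.6 CPM in control DM2, 2.33 in ERK3-depleted and 2.47 in MK5-depleted cells, 4.96-fold and 4.66-fold lower. Klhl24 averaged 101, 47.0 and 48.8 CPM, 2.15-fold and 2.07-fold lower. Cul3, the scaffold of the ligase, was not called in ERK3-depleted cells (-0.16 ± 0.10, adjusted p = 0.216) and was lower in MK5-depleted cells (-0.29 ± 0.10, adjusted p = 0.0299). Klhl38 and Klhl34 stayed under 1 CPM in every library and were not tested.

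All 22 genes of the Hsp90 and co-chaperone list were tested. From GM to DM2, 3 rose and 3 fell in control, where 22.5% and 23.1% of all genes did. In the ERK3-depleted line 1 rose and 10 fell (28.9% and 26.2% of all genes), and in the MK5-depleted line 2 rose and 8 fell (24.6% and 24.8% of all genes). Hsp90ab1, the constitutive cytosolic form, averaged 2703 CPM in control, 2758 in ERK3-depleted and 2696 in MK5-depleted DM2 cells, and neither depleted line was called against control (log2 0.03 ± 0.07, adjusted p = 0.740 and -0.0038 ± 0.068, adjusted p = 0.969). Ptges3, the co-chaperone p23, was higher at DM2 in both lines (1.07 ± 0.24, adjusted p = 0.00142 and 0.68 ± 0.24, adjusted p = 0.0304). Stip1, which hands clients from HSP70 to HSP90, was lower in ERK3-depleted DM2 cells (-0.39 ± 0.11, adjusted p = 0.00483). Unc45a, the general relative of Unc45b, was not called in either line at DM2 (0.01 ± 0.08 and 0.04 ± 0.08). In all, 3 genes of the list were higher and 8 lower in ERK3-depleted, and 3 higher and 5 lower in MK5-depleted cells at DM2; over all genes the shares were 28% and 27.8% for ERK3 and 22.2% and 22.9% for MK5. Of 6 SMYD methyltransferases and partners, 4 were higher and none lower at DM2 in each depleted line, against those same shares, with medians of 0.32 and 0.34. Among them Smyd2 averaged 66.8 CPM in control, 97.9 in ERK3-depleted and 93.7 in MK5-depleted cells (0.55 ± 0.09, adjusted p = 4.91e-05 and 0.49 ± 0.09, adjusted p = 0.000279).

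Of 15 intermediate filament genes, 12 were tested, and at DM2 7 were higher and 2 lower in each depleted line, where over all genes 28% and 27.8% were for ERK3 and 22.2% and 22.9% for MK5. Plec, whose product plectin ties desmin to other structures, averaged 457, 772 and 700 CPM in control, ERK3-depleted and MK5-depleted DM2 cells. Nefl, a neurofilament gene, averaged 4.08, 31.3 and 23.8 CPM (2.95 ± 0.66, adjusted p = 0.00156 and 2.55 ± 0.66, adjusted p = 0.00593), and was higher in GM too (2.37 ± 0.62, adjusted p = 0.0347 and 2.47 ± 0.62, adjusted p = 0.0254). Sync, which encodes the desmin-binding protein syncoilin, went the other way from Des, averaging 122, 55.1 and 81.8 CPM (-1.14 ± 0.20, adjusted p = 0.000136 and -0.57 ± 0.20, adjusted p = 0.0239).

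Patterns over the 18 libraries were compared by Pearson's r of log2 CPM, as a description only, since media, lines and library quality are shared by all genes. Klhl41 and Unc45b had r = 0.989, the highest of any pair of members, and Klhl31 and Smyd1 had 0.970. Hsp90aa1 had 0.120 with Klhl41 and 0.766 with Des. Among 10054 ranked genes, Tmem38b and Casq2 were among those most like Klhl41 (r 0.990 to 0.991), and those most like Unc45b were Srl, Mymk and Fgf21 (r 0.995 to 0.997). Klhl40 was most like Mfap5, Lmod3 and Prkag3, and Klhl31 most like Tnnt1, Ttn and Sema6a. Smyd1 was most like Cdh15, Synpo2l and Chrnd, Klhl30 like Rnf181, Trdn and Creld1, and Des like Eif4ebp1, Bean1 and Socs2. For Hsp90aa1 the 3 were Larp1b, Dnajc2 and Snrnp48, at r 0.939 to 0.967.

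Des, Klhl40, Smyd1 and Unc45b overlap genes on the opposite strand. Counting was by strand, and reads on the other strand of the members, pooled over libraries, were 1.69 (Smyd1) to 6.0% (Hsp90aa1) of the reads counted in either direction.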

How the data were processed

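RNA from 18 C2C12 libraries was counted by the authors: the deposited counts are whole reads per gene, for which the submitters' processing notes name bcl2fastq 2.17, STAR 2.5.1b and the build GRCm38, in unstranded, forward and reverse columns. The reverse column was used, since it held 92.8 to 95.3% of stranded gene counts. RSEM 1.2.28, also named in those notes, gave the authors' deposited TPM and expected counts, which served as alternatives. Summary lines for reads not counted in a gene, 21.7 to 35.8% of reads, were left out. Of 50600 identifiers 50376 matched GENCODE M21, the source of symbols and positions.

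Tests were run in R 4.3.3 with edgeR 4.0.16, TMM, filterByExpr (13939 genes), and robust quasi-likelihood fits of 1 model with 6 group means and 12 residual degrees of freedom. P-values were adjusted by Benjamini-Hochberg over all tested genes within each of 10 contrasts, with a call under 0.05. The standard error is the log2 fold change over the square root of F. The code was tested on simulated data. Alternatives used DESeq2 1.42.0, limma 3.58.1 on log2(TPM + 1) and log2(TPM + 0.1) with a filter of 1 TPM in 3 libraries, rounded expected counts, other filters and designs, and each library left out in turn. Within a group no library was a copy of another: squared differences between replicates were 8.02 to 88.5 times the counting variance. Libraries of different groups were not compared in this way.

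The members, gene lists and cell type markers were chosen with earlier results of these data known. Genes named from a list are among up to 3 called genes with the largest change in each direction in a contrast, at 5 CPM or more in the higher group; Hsp90ab1, Unc45a, Cul3, Neb, Lmod3, Klhl38 and Klhl34 were named for their roles, where that rule did not pick them, after their values were seen. Genes like a member are the 3 with the highest r among those at a mean of 5 CPM or more. 1 of them is not reported here.

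Same-numbered libraries of 2 lines in a medium had deviations from their group means that correlated at 0.0553 to 0.498. Every pair exceeded 0.1 for both depleted lines against control in GM, for ERK3 against control and MK5 against ERK3 at DM2, and for ERK3 between media, so blocked values stand beside those results where a call changed. Differently numbered libraries correlated at -0.369 to 0.138 for 2 lines in a medium and at -0.292 to 0.280 for GM and DM2 of a line. Some of those pairs thus also exceeded 0.1, so the pairing is not established. It comes from these correlations only, since the labels do not say what a number marks. Promoter windows were read from RefSeq (GRCm38.p6).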

Additional observations from a re-analysis of the deposited data

Results flagged for a closer look

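3 response differences stood out because the change from GM to DM2 in a depleted line differed from that in control by an interaction test (edgeR, n = 3 libraries a group). For Klhl41 the ERK3-depleted response was lower than the control response by -2.39 on the log2 scale (adjusted p = 0.00296), and the MK5-depleted response by -1.50 (adjusted p = 0.0286). For Unc45b the ERK3-depleted response was lower by -2.07 (adjusted p = 0.0195). Both depleted lines were set against the same control libraries. Leaving out single libraries ended the Unc45b call for ERK3 in 3 cases (adjusted p 0.0575 to 0.063) and the Klhl41 call for MK5 in 7 (0.0577 to 0.101). Without the 4 libraries with most reads outside genes, Klhl41 was at -1.93 for ERK3 and -1.10 for MK5, and Unc45b at -1.59 for ERK3. Klhl41 for MK5 and Unc45b for ERK3 were then no longer called, as given above. With reads outside genes as a covariate in edgeR, Unc45b for ERK3 was at -1.19 (adjusted p = 0.222) and not called. In that fit Klhl41 was at -1.72 (adjusted p = 0.0486) for ERK3 and -1.34 (adjusted p = 0.018) for MK5. Groups of 3 libraries were not tested for single outlying values.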

How the results depend on the processing

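Of 80 member fold changes, 37 were called and 12 of these lost the call under some alternative; no called value changed sign. Over 1712 alternative values, 1584 kept direction and side of the threshold, 60 lost and 66 gained a call, and 2 turned direction with a call: on log2(TPM + 1), Klhl40 for ERK3 against control at DM2 was -0.447 (adjusted p = 0.0183) and for the MK5 response -0.743 (adjusted p = 0.029). Sign changes of values called in neither fit, 84 in all and at most 0.595 in size, were not counted as turned. The cause of these changes was not tested. The counts of members that rose from GM to DM2 stayed at 7, 8 and 7 in each leave-one-out fit; the 8 for ERK3 became 7 with the covariate of reads outside genes or without the 4 libraries with most of them, where Hsp90aa1 lost its call.

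Other counts moved. For ERK3 against control in GM, members higher (1) became 5 without the filter on low counts, 3 with the replicate block with or without the length and GC correction, and 0 on either TPM scale or at 0.01; for MK5 in GM (1) they became 3 without the filter, 2 with the block with or without that correction, 2 on the libraries of the contrast only, and 0 on either TPM scale or at 0.01. For ERK3 at DM2, higher (4) became 2 with the covariate of reads outside genes, 1 without the 4 libraries, 1 on either TPM scale, 2 at 0.01 and 3 with RSEM counts, DESeq2 or the length and GC correction, and lower (2) became 1 with the covariate and 3 on log2(TPM + 1). For MK5 at DM2, higher (1) became 4 without the filter, with the block, with the block and correction or on the contrast's libraries only, 3 with the correction alone or the covariate, and 2 with RSEM counts, unstranded counts or DESeq2; lower (3) became 1 without the 4 libraries and 2 at 0.01. For MK5 against ERK3 at DM2, higher (0) became 1 and lower (0) became 3 without the filter; lower became 2 with the block, with or without the correction, and 1 with DESeq2. For the ERK3 response, higher (0) became 1 without the filter, with RSEM counts, the correction, the replicate block within line or DESeq2, and 2 with the block with or without the correction; lower (2) became 1 with the covariate, without the 4 libraries or at 0.01, and 3 without the filter or with the block, overall or within line. For the MK5 response, higher (0) became 1 with the block, overall or within line; lower (1) became 3 without the filter or on log2(TPM + 1), and 0 without the 4 libraries or at 0.01. Leaving out 1 library at a time gave 0 to 2 higher for ERK3 in GM, 0 to 2 for MK5 in GM, 2 to 4 higher and 2 to 2 lower for ERK3 at DM2, 1 to 2 higher and 2 to 3 lower for MK5 at DM2, 0 to 2 lower for MK5 against ERK3, 0 to 2 higher and 1 to 2 lower for the ERK3 response and 0 to 1 lower for the MK5 response. Over all genes, MK5 against ERK3 at DM2 had no call in the fit without a block and 128 higher and 240 lower with it. Where the pairing held, the block changed member calls only in GM and for MK5 against ERK3 at DM2, as given above. It also changed calls for the ERK3 response, where the pairing held only in part. ERK3 and control libraries paired in both media, but same-numbered control libraries of GM and DM2 correlated at 0.172, -0.0209 and 0.0245. Without such pairing the block added Klhl31, Smyd1 and Hsp90aa1 for MK5 at DM2 and Des for the MK5 response. In GM, the 5 least abundant members rest on 9 to 176 reads a library, which limits their folds.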
